A study of Mus musculus with 18 samples.

Results

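The transcriptional response of Fmr1 knockout (KO) cortical neurons to JQ1 was measured in 3 JQ1-treated and 3 vehicle-treated libraries, 6 of the 12 libraries in the deposited count table. Its members are the 37310 annotated genes of that table, with spike-in sequences left out. Cortical neurons of KO or wild-type (WT) mice, grown in Neurobasal medium with B27 for 7 days in vitro, then received JQ1 or the vehicle DMSO for 24 h, which gave the groups KO with JQ1, KO with DMSO, WT with JQ1 and WT with DMSO, each of 3 libraries. The sources used here give no JQ1 dose, KO allele, animal age or number of animals. They also do not say whether the 3 libraries of a group came from separate animals, so p-values reflect the spread of these libraries, which may be technical in part. The 6 samples treated with THZ1 were not analysed here.

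JQ1 is a small molecule that fills the acetyl-lysine pocket of the BET bromodomain proteins, among them Brd2, Brd3 and the germline member Brdt. BET proteins bind acetylated histones at promoters and enhancers, and help recruit the elongation kinase P-TEFb, a pair of Cdk9 with a T-type cyclin, which releases paused RNA polymerase II. FMRP, the product of Fmr1, is an RNA-binding protein that represses translation of many neuronal mRNAs and is missing in fragile X syndrome, and several of the mRNAs it binds encode chromatin regulators.

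Gene counts came to 38770458, 78331837 and 34625688 in the KO libraries with JQ1 (replicates 1 to 3) and 53564043, 64000804 and 53174615 in those with DMSO. Fmr1 (ENSMUSG00000000838) read 26.01, 27.6 and 34.6 CPM with JQ1, against 21.5, 22.2 and 29.4 CPM with DMSO, below the 135.1 CPM (counts scaled to a fixed library total) of the lowest of the WT libraries with JQ1 and the 119.0 CPM of the lowest with DMSO. The KO libraries of both treatments thus carried their genotype label. Xist, the RNA of the inactive X chromosome, was at 4.34 CPM with JQ1 and 4.29 CPM with DMSO in the KO replicate 3 libraries, and at 230.6 CPM or more in the other KO libraries. Ddx3y, a gene of the Y chromosome, was at 76.2 CPM with JQ1 and 54.5 CPM with DMSO in replicate 3. In the other KO libraries it was at 28.07 to 38.5 CPM. The KO replicate 3 libraries thus differed from replicates 1 and 2 in sex make-up. The replicates of a group differed beyond counting error, and chi-square over degrees of freedom was 15.4 to 22.5 with JQ1 and 7.34 to 37.8 with DMSO. Neuronal markers summed to 3550 to 3780 CPM with JQ1 and 3850 to 4170 CPM with DMSO, and astrocyte markers to 210 to 364 CPM with JQ1 and 348 to 482 CPM with DMSO, so the cultures were neuronal with some glia. In such bulk samples fewer cells of a type and less RNA per cell cannot be told apart.

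JQ1 moved transcripts throughout the tested range, most of them by small amounts. Of 15433 genes with enough counts, 8817 (57.1%) differed between JQ1 and DMSO in KO neurons at a Benjamini-Hochberg adjusted p under 0.05 in the edgeR quasi-likelihood test, which is what "called" means below. The other 21877 genes were too low to test. Higher calls numbered 4279 (27.7% of tested genes) and lower calls 4538 (29.4%), but the lower ones moved further, with a median log2 change of -0.69 against 0.31 for the higher ones. Calls of more than 2-fold numbered 137 higher (0.888%) and 1583 lower (10.3%). Calls of more than 4-fold numbered 20 higher (0.13%) and 451 lower (2.92%), and 98 genes (0.635%) fell by more than 8-fold. The distribution of all log2 changes was skewed the same way, with a 1st percentile of -2.66 and a 99th percentile of 0.98. The 3 JQ1 libraries lay entirely above the 3 DMSO libraries for 4578 genes (29.7%) and entirely below them for 4795 (31.1%). Scaling by the upper quartile gave 3093 higher and 5346 lower calls. Scaling to the spike-in RNA, whose share of reads was 0.193% to 0.243% with JQ1 and 0.169% to 0.348% with DMSO, left 206 higher and 1314 lower calls. Of the 1720 calls of more than 2-fold, 1690 changed by more than 2-fold the same way under upper-quartile scaling and 1580 under spike-in scaling, where 131 higher and 1211 lower genes were both called and past 2-fold. Of the 50 gene lists described below and in the closing observations, 47 had a higher call, against 10 with spike-in scaling, and 49 had a lower call, against 32. The counts that follow hold for TMM scaling, and those with spike-in scaling are given beside the leading lists.

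The size and direction of the change went with transcript level. Among 2745 genes averaging under 1 CPM over the 6 KO libraries, 43.5% were lower with JQ1 and 5.06% higher, and 34.8% fell by more than 2-fold. Among 2485 genes above 100 CPM the split was turned round, with 13.4% lower and 44.4% higher, and 0.282% fell by more than 2-fold. The bins between these moved in steps, from 45.5% lower and 11.4% higher at 1 to 3 CPM to 20.3% lower and 40.4% higher at 30 to 100 CPM. A low gene passes the filter through the group where it is higher, so the shares in the lowest bin describe the genes that passed and not all low genes. JQ1 libraries had reads for 19320 ± 733 genes and DMSO libraries for 20700 ± 172 (SD, n = 3 each; exact permutation p = 0.1, two-sided, the smallest that 3 against 3 allows). That number depends on depth, and JQ1 replicates 1 and 3 were shallower than every DMSO library. JQ1 replicate 2, the deepest of the 6 KO libraries, had reads for 20147 genes, where the DMSO libraries had 20502, 20822 and 20770. The part of depth in the difference was not tested. Because calls go with level, a list's share of calls in 1 or both directions is followed below, after the word against, by a same-level share. That is the share of all tested genes at the same levels, the mean over the list's tested members of the share in each member's level bin.

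**Figure D1:**
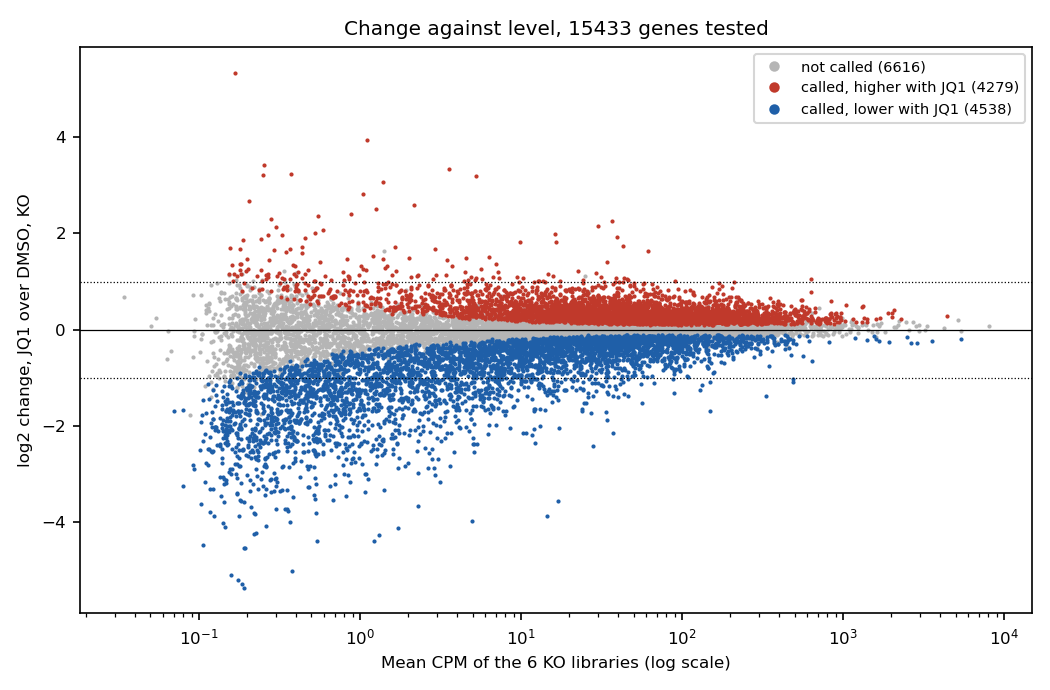
Log2 change between JQ1 and DMSO in KO neurons (vertical axis) against the mean CPM of the 6 KO libraries (horizontal axis, log scale), 1 point per tested gene, with dotted lines at 2-fold. The points called lower, 4538 in all, spread far below the line at low levels, while the 4279 called higher stay mostly within 2-fold.

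Most tested genes of the BET and P-TEFb system rose. Hexim1 (ENSMUSG00000048878), whose protein holds P-TEFb inactive within the 7SK small nuclear ribonucleoprotein, read 94.7, 91.6 and 92.9 CPM with JQ1, against 29.8, 28.6 and 31.2 CPM with DMSO. The groups were far apart and tight, and the log2 change was 1.64 (SE 0.0490, adjusted p = 7.96e-11), or 3.12-fold. Its paralog Hexim2 went the other way, with 3.69, 2.93 and 3.74 CPM with JQ1, against 9.12, 8.35 and 7.84 CPM with DMSO. That gene fell by 1.31 on the log2 scale (SE 0.105, adjusted p = 1.88e-07), again without overlap between the groups. Mepce, the capping enzyme that protects 7SK RNA, rose by 0.55 (SE 0.0531, adjusted p = 1.14e-06).

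Among the drug's targets, Brd2 read 668, 678 and 647 CPM with JQ1, against 436, 444 and 427 CPM with DMSO. Its log2 change was 0.61 (SE 0.0418, adjusted p = 5.13e-08). Brd3 showed a small rise of 0.16 (SE 0.0424, adjusted p = 0.00613), with 184 to 190 CPM with JQ1 and 166 to 172 CPM with DMSO, and it lost its call under upper-quartile scaling (adjusted p = 0.104). Brdt, chosen after its values were seen, fell by 0.32 (SE 0.0820, adjusted p = 0.00392), at 6.69 to 6.94 CPM with JQ1 and 8.18 to 9.02 CPM with DMSO. The list of BET and P-TEFb control genes had 16 of 26 tested members higher (61.5%, against 36.9% at these levels) and 4 lower, around a median log2 change of 0.26, where the median of all tested genes was 0.0014. With spike-in scaling 1 of the list was called higher and 1 lower, around a median of 0.315. The kinase Cdk9 (0.34), its cyclins Ccnt1 (0.36) and Ccnt2 (0.38), and Larp7 (0.31), which binds 7SK RNA, were among the higher ones. Beside Hexim2, the lower ones were the elongation factor genes Aff1 (-0.48) and Th1l (-0.17) and Jmjd6 (-0.16).

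Replication-dependent histone genes, which lie in clusters and feed new chromatin during DNA replication in dividing cells, rose with JQ1. Of 27 tested members 24 rose (88.9%, against 13.7% at these levels) and 0 fell, 22 of them rose by more than 2-fold, and the median log2 change was 2.07. With spike-in scaling 22 were called higher. The other 40 members of the list were too low to test. Of the tested members 14 averaged under 1 CPM, and such genes pass the filter through the group where they are higher. The counts therefore do not stand for all members. At 3 CPM or more, 9 of 9 were higher. Hist2h2bb, an H2B gene, read 6.54, 6.67 and 6.40 CPM with JQ1, against 0.618, 0.696 and 0.626 CPM with DMSO, a 10.1-fold rise. Hist1h4i, an H4 gene, read 9.23, 9.86 and 9.48 CPM with JQ1, against 0.909, 1.22 and 0.957 CPM with DMSO, a 9.19-fold rise. Both were low with DMSO in every library and high with JQ1 in every library, and as leading genes both were chosen among those whose groups do not overlap. The linker histone gene Hist1h1c, the most abundant of the leading ones, read 45.3, 49.3 and 52.8 CPM with JQ1, against 9.72, 10.9 and 12.3 CPM with DMSO. Its log2 change of 2.16 (SE 0.0782, adjusted p = 1.62e-10) stood beside those of Hist2h2bb, 3.33 (SE 0.120, adjusted p = 1.62e-10), and Hist1h4i, 3.20 (SE 0.125, adjusted p = 3.63e-10). Together the cluster genes took 0.0254% ± 0.000334 of the gene counts with JQ1 and 0.0116% ± 0.00042 with DMSO (SD, n = 3 each; exact permutation p = 0.1, two-sided, the smallest possible). Near-identical histone genes can share reads, so the split of counts between single members is uncertain. H3f3b, a gene of the replication-independent histone H3.3 outside the clusters, rose as well and was far more abundant, with 799, 828 and 926 CPM with JQ1, against 409, 397 and 432 CPM with DMSO and a log2 change of 1.04 (SE 0.0616, adjusted p = 1.32e-08).

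The promoters of Hexim1 and the 3 leading histone genes are shown because these genes carry the rise described above, each from 250 bases before to 50 bases after the RefSeq start (GRCm38.p6, 5′ to 3′ on the gene's strand). Capitals mark matches, on either strand, to the core promoter motif TATAAA, the NF-Y motif CCAAT, the Sp1 motif GGGCGG, the E-box motif CACGTG and the cAMP response element TGACGTCA, each searched by itself, so matches can overlap. They lie at chr11:103116075-103116374 (plus strand) for Hexim1, chr3:96269450-96269749 (plus) for Hist2h2bb, chr13:22041313-22041612 (minus) for Hist1h4i and chr13:23530794-23531093 (plus) for Hist1h4h.
Hexim1: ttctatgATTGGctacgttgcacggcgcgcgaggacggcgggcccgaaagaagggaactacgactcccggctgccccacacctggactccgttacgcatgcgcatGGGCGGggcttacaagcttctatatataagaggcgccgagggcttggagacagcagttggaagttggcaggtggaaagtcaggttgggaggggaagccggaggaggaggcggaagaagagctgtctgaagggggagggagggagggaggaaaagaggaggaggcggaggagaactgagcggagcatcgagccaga
Hist2h2bb: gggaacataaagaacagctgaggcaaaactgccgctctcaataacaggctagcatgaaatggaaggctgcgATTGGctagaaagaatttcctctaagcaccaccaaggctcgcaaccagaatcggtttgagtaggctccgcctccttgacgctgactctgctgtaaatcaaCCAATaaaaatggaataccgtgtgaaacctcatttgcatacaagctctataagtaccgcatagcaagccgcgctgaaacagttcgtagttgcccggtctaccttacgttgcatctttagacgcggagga
Hist1h4i: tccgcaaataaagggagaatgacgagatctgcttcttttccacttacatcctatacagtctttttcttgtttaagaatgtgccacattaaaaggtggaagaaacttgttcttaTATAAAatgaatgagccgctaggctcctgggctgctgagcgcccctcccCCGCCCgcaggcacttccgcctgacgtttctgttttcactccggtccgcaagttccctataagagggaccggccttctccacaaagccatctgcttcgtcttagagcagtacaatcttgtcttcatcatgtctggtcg
Hist1h4h: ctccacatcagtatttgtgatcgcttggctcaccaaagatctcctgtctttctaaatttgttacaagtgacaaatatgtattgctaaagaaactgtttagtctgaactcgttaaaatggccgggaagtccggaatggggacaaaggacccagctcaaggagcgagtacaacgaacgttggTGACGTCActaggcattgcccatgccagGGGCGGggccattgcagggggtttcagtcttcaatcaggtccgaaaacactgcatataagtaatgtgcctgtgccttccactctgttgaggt

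TATAAA was found in 14 of the 23 tested histone cluster genes that had a promoter in the table (60.9%; 23 of 27 members matched) and in 7.28% of the 11631 promoters of all tested genes that matched. CCAAT was found in 19 of the 23 (82.6%) and in 38.5% of the 11631, while GGGCGG was found in 9 (39.1%) against 63.8% and CACGTG in 0 against 10.1%. Of the 4 printed promoters, Hexim1 held CCAAT and GGGCGG, Hist2h2bb CCAAT at a pair of places, Hist1h4i TATAAA and GGGCGG, and Hist1h4h TGACGTCA and GGGCGG. TGACGTCA was found in 1 of the 23 (4.35%) and in 3.24% of all. These are matches of letters and not binding sites. The table held a promoter for 75.4% of all tested genes, so the shares given for all describe the genes that matched. Shares for the genes of more than 2-fold change are not given, since 69.3% of the higher and 72.3% of the lower ones matched and the others may differ.

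The other leading higher genes were of mixed function. Akap13, the gene of a kinase anchor, read 67.6, 58.0 and 57.0 CPM with JQ1, against 12.3, 13.4 and 12.6 CPM with DMSO, a log2 change of 2.25 (SE 0.0696, adjusted p = 7.96e-11). Txnip, whose protein binds thioredoxin and restrains glucose uptake, read 64.8, 58.6 and 65.2 CPM with JQ1, against 17.8, 15.8 and 16.2 CPM with DMSO, a change of 1.92 (SE 0.0687, adjusted p = 1.62e-10). Peg10, a paternally expressed gene derived from a retrotransposon, read 66.8, 69.0 and 63.8 CPM with JQ1, against 19.8, 21.5 and 18.6 CPM with DMSO, a change of 1.73 (SE 0.125, adjusted p = 8.16e-08). In all 3 genes every JQ1 library was above every DMSO library by at least 2-fold. The leading genes were chosen among those whose groups do not overlap, so the separation itself was set by that choice. Chchd7 (1.83), a mitochondrial protein gene, Arid5a (1.82), an RNA-binding protein gene, and Sertad1 (1.68), a regulator of Cdk4, completed the 12 of largest change with the histone genes Hist1h4h (2.59) and Hist1h2bc (1.99) and with Hexim1.

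The leading lower genes fell much further. Matn4, a matrilin of the extracellular matrix, read 0.185, 0.185 and 0.179 CPM with JQ1, against 3.43, 1.83 and 4.56 CPM with DMSO, a log2 change of -4.13 (SE 0.430, adjusted p = 2.26e-06). Trhr, the receptor for thyrotropin-releasing hormone, read 0.264, 0.874 and 0.419 CPM with JQ1, against 6.63, 10.01 and 11.4 CPM with DMSO, a change of -3.97 (SE 0.271, adjusted p = 4.93e-08). Rlbp1, a retinaldehyde carrier known from retinal glia, read 1.13, 2.34 and 1.76 CPM with JQ1, against 24.2, 26.03 and 31.5 CPM with DMSO, a change of -3.88 (SE 0.187, adjusted p = 2.65e-09). Levels with JQ1 were 17.5-fold lower for Matn4, 15.7-fold lower for Trhr and 14.7-fold lower for Rlbp1, and the groups did not come near each other. These genes too were chosen among those without overlap. Aldh1a3, which makes retinoic acid, read 1.13, 3.46 and 3.05 CPM with JQ1, against 29.0, 32.9 and 32.8 CPM with DMSO, and its JQ1 libraries varied more than its DMSO libraries while staying far under them (log2 change -3.57, SE 0.210, adjusted p = 1.29e-08). Slc25a18 (-3.16, SE 0.196), a mitochondrial glutamate carrier of astrocytes, and Cryab (-2.99, SE 0.194), a small heat shock protein, followed. Otof (-3.03), the calcium sensor of vesicle release in inner hair cells, Sidt1 (-2.89), Marco (-2.88), a scavenger receptor of macrophages, Podn (-2.87), a matrix proteoglycan, and the zinc transporter gene Slc39a12 (-2.84) were also among the 12 of largest fall.

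**Figure D2:**
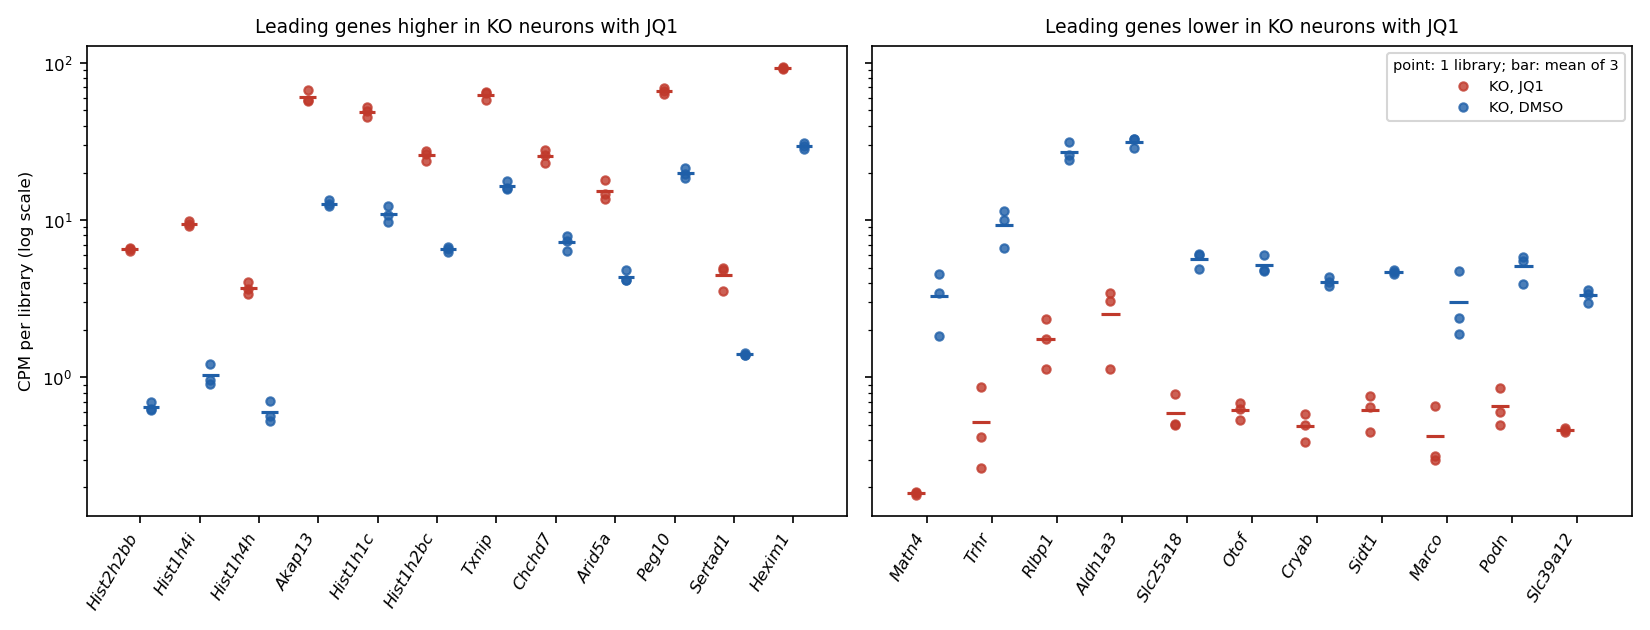
CPM per library (log scale) of the 12 genes of largest rise (left panel) and of 11 of the 12 of largest fall (right panel), KO with JQ1 in red left of KO with DMSO in blue, points for the 3 libraries and bars for their mean. The genes were chosen among those whose groups do not overlap, and the highest value of a lower gene with JQ1 is 3.46 CPM (Aldh1a3).

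The promoters of the first 3 lower genes that the RefSeq table holds are shown for contrast with the rising ones, in the same window and with the same capitals. They lie at chr2:164405111-164405410 (minus strand, 1 of 2 starts listed), chr7:79386978-79387277 (minus) and chr6:120773518-120773817 (plus). Each holds 1 match, CCAAT in Matn4 and TATAAA in Rlbp1 and Slc25a18.
Matn4: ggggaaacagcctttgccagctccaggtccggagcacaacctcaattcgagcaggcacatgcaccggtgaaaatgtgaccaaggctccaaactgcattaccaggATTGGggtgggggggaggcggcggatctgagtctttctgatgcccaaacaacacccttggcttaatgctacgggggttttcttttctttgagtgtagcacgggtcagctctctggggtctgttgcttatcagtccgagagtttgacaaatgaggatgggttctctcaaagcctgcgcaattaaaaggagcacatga
Rlbp1: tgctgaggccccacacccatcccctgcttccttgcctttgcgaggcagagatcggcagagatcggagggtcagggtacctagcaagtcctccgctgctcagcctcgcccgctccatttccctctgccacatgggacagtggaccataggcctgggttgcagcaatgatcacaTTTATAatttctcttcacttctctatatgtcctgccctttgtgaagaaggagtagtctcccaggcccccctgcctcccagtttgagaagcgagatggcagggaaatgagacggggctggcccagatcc
Slc25a18: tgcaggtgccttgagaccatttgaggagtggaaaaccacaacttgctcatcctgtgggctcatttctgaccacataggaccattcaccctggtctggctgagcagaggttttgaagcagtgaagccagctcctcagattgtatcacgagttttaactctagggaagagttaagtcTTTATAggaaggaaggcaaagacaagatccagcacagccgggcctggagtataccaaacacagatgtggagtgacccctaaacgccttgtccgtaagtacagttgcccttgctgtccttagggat

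Measured as differences in CPM rather than as folds, the largest changes were in abundant genes of mixed function. Eef1a1, the elongation factor that delivers tRNA to the ribosome, averaged 4874 ± 37.1 CPM with JQ1 and 4026 ± 142 CPM with DMSO (SD, n = 3 each), and its log2 change was 0.28 (SE 0.0497, adjusted p = 0.000299). Eef2 (0.40, SE 0.0554), which moves the ribosome along, Eif4g2 (0.34, SE 0.0495), an initiation factor relative, Spna2 (0.35, SE 0.0693), brain spectrin, and the lysosomal Psap (0.49, SE 0.0613) and H3f3b were the other 5 of the 6 largest gains in CPM. Of the 6 largest losses 4 were in tubulin genes, led by Tuba1a with 5039.8 ± 200.1 CPM with JQ1 and 5779.6 ± 140.5 CPM with DMSO (log2 change -0.20, SE 0.0494, adjusted p = 0.00349). Tubb2b (-0.24), Tubb5 (-0.29) and Tubb3 (-0.27) were the other tubulin genes. Scd2 (-0.25, SE 0.0702), a fatty acid desaturase gene, was also among the 6. Cplx2, the complexin that clamps synaptic vesicle fusion, fell by more than 2-fold, with 261, 348 and 324 CPM with JQ1, against 629, 699.7 and 671 CPM with DMSO (log2 change -1.10, SE 0.0802, adjusted p = 8.96e-08).

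Cytosolic ribosomal protein genes rose by small amounts, 48 of 79 higher (60.8%, against 43.6% at these levels) and 2 lower around a median of 0.16. Rps2 (0.55, SE 0.0419) and Rps20 (0.53, SE 0.0549) had the smallest adjusted p. The list of translation factors, which also holds mTOR pathway genes, had 31 of 50 higher (62.0%, against 42.5% at these levels) and 3 lower (median 0.17). Among the higher were Pik3cb (0.95), a lipid kinase upstream of mTOR, Eef1d (0.41) and Eif1 (0.39). Both counts of higher genes shrank with upper-quartile scaling, to 26 in the ribosomal and 19 in the translation list, and to 0 and 1 with spike-in scaling. The medians stayed above 0. Splicing and RNA-binding genes had 19 of 45 higher (42.2%, against 42.4% at these levels) and 4 lower, 11 and 7 with upper-quartile scaling, and the polypyrimidine tract factor Ptbp1 rose by 0.45 while the neuronal splicing factor Rbfox1 fell by 0.46. Mitochondrial ribosomal genes were split, 21 of 72 higher (29.2%, against 34.2% at these levels) and 16 lower (10 lower without KO_JQ1 replicate 2), with Mrpl49 (0.90) among the higher and Mrps35 (-0.50) among the lower. Nuclear respiratory chain genes had few calls, with 4 of 74 higher (5.41%, against 41.45% at these levels) and 15 lower (20.3%, against 17.97%). Lower calls numbered 24 with the replicate block and 29 with upper-quartile scaling.

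**Figure D3:**
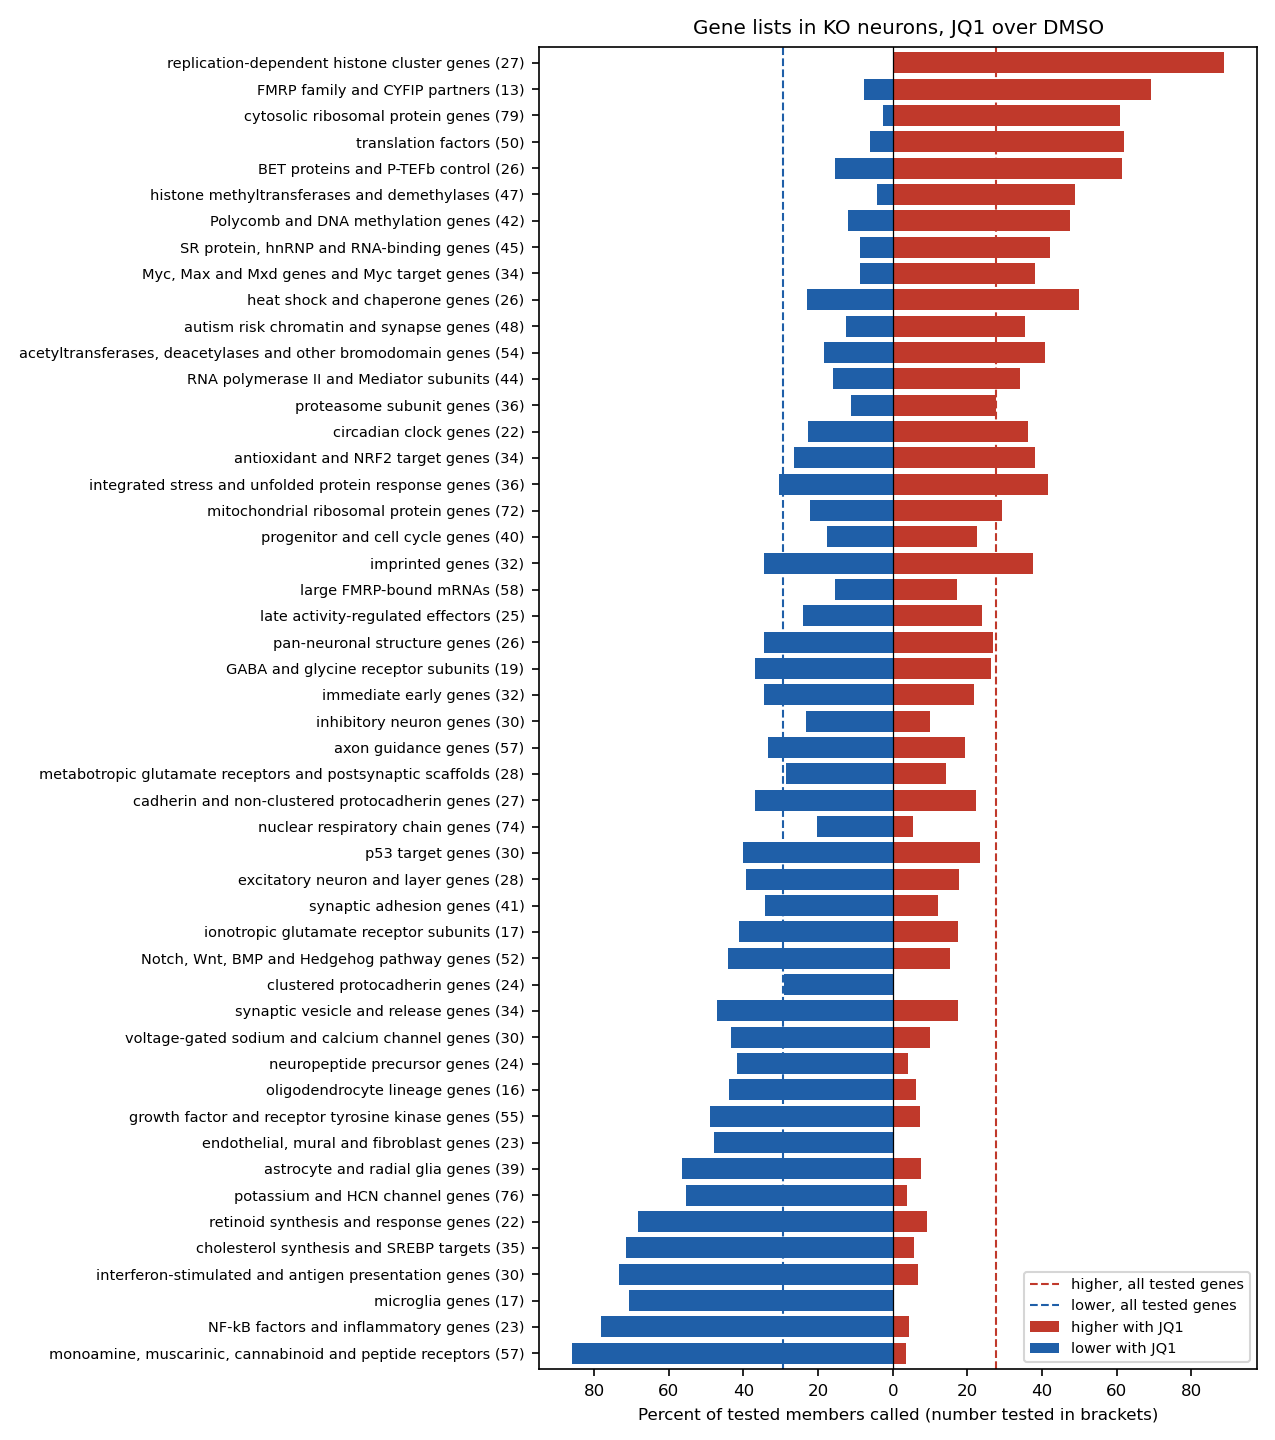
Percent of tested members called higher (red, to the right) or lower (blue, to the left) with JQ1 in KO neurons for 50 gene lists, the number tested in brackets, with dashed lines at the shares of all tested genes (27.7% higher, 29.4% lower). Histone cluster genes stand at one end (88.9% higher) and monoamine, muscarinic, cannabinoid and peptide receptors at the other (86.0% lower).

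Receptors for neuromodulators were lowered across families. Of 57 tested receptor genes for monoamines, acetylcholine, cannabinoids and peptides, 49 fell (86.0%, against 38.6% at these levels) and 2 rose, with a median log2 change of -0.88, and 24 fell by more than 2-fold. With spike-in scaling 25 were called lower. Sstr3, a somatostatin receptor of neuronal cilia, read 0.0264, 0.146 and 0.120 CPM with JQ1, against 2.36, 2.30 and 2.34 CPM with DMSO, the deepest fall of the list (log2 change -4.41, SE 0.247, adjusted p = 8.39e-09). The JQ1 values rest on few reads, while the DMSO libraries hardly varied. Oprl1, the nociceptin receptor, read 32.4, 34.9 and 33.0 CPM with JQ1, against 66.0, 67.5 and 61.6 CPM with DMSO (log2 change -0.96, SE 0.0514, adjusted p = 5.94e-09). Tacr1, the substance P receptor, fell by 2.02 on the log2 scale (SE 0.150, adjusted p = 9.85e-08). The 2 that rose were the muscarinic receptor gene Chrm4 (0.26) and the galanin receptor gene Galr2 (0.27), and 0 or 1 of the list rose when any single KO library was left out. A further 10 of the 67 members in the table were too low to test. Of the tested members 17 averaged under 1 CPM, and such genes pass the filter through the group where they are higher. The counts therefore do not stand for all members. At 3 CPM or more, 26 of 29 were lower and 2 higher.

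Neuropeptide precursors had 10 of 24 lower (41.7%, against 36.7% at these levels) and 1, Scg2 (0.64), a secretogranin, higher (median -0.46; 0 higher without KO_JQ1 replicate 1 or KO_DMSO replicate 3). Cck, the cholecystokinin gene, read 19.9, 28.7 and 27.7 CPM with JQ1, against 63.5, 66.6 and 70.2 CPM with DMSO, with no overlap (log2 change -1.39, SE 0.104, adjusted p = 1.13e-07). Grp (-2.16, SE 0.265), the gastrin-releasing peptide gene, and Nts (-1.38, SE 0.181), the neurotensin gene, also fell. Pdyn, the prodynorphin gene, had a change of -3.26 (SE 0.462, adjusted p = 3.8e-05) but averaged 0.0607 ± 0.0259 CPM with JQ1 and 0.543 ± 0.0719 CPM with DMSO (SD, n = 3 each), so its size is uncertain. At 3 CPM or more, 4 of 11 precursor genes were lower and 1 higher.

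Potassium and HCN channel genes had 42 of 76 lower (55.3%, against 30.8% at these levels) and 3 higher, with a median of -0.34. Kcnip3, a calcium-binding partner of A-type channels, fell by 1.46 (SE 0.136, adjusted p = 7.95e-07), and the silent subunit gene Kcnf1 by 0.70. With spike-in scaling 8 of the list were called lower. Kcnh7 (0.25) was among the higher ones. Higher calls in the list numbered 1 without KO_DMSO replicate 1 or 3 and 5 without KO_JQ1 replicate 3. Sodium and calcium channel genes had 13 of 30 lower (43.3%, against 22.1% at these levels) and 3 higher, 6 higher with the replicate block, 5 without KO_JQ1 replicate 3 and 1 without KO_DMSO replicate 3, and 1 lower with spike-in scaling. Cacng3 (-1.01) and Cacng8 (-0.64), which encode AMPA receptor auxiliary proteins, and the T-type channel gene Cacna1i (-0.80) fell, while Cacna2d1 (0.43), the gabapentin-binding subunit, rose.

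Glutamate receptor subunits changed by subunit. Grin3a, a non-canonical NMDA receptor subunit of immature synapses, read 19.8, 20.7 and 18.2 CPM with JQ1, against 46.1, 56.0 and 46.7 CPM with DMSO (log2 change -1.34, SE 0.0790, adjusted p = 1.33e-08). Grik4 (-1.39, SE 0.0999), a kainate receptor subunit, Grin2d (-0.87, SE 0.0654), an NMDA subunit of interneurons, and Gria1 (-0.51, SE 0.0507), an AMPA subunit, also fell. Gria2 (0.19), Grin1 (0.25) and Grik2 (0.26), chosen after their values were seen, were the 3 of 17 that rose (17.6%, against 35.8% at these levels). Another 7 fell (41.2%, against 23.0%). Of 28 metabotropic receptor and postsynaptic scaffold genes 8 fell (28.6%, against 18.4% at these levels), among them Shank2 (-0.64). In that list 4 rose (14.3%, against 40.1%), among them Baiap2 (0.40), with 2 higher without any 1 of replicates 1 and 2 of either treatment. GABA and glycine receptor genes were divided, 5 of 19 higher (26.3%, against 36.7% at these levels) and 7 lower (36.8%, against 21.5%). Gabbr1 (0.40) was among the higher ones and Gabra5 (-0.49), the subunit of tonic inhibition in hippocampus, among the lower.

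On the presynaptic side 16 of 34 synaptic vesicle and release genes fell (47.1%, against 19.2% at these levels) and 6 rose (3 lower and 0 higher with spike-in scaling), with a median of -0.14. Doc2a, a calcium sensor of spontaneous release, read 3.88, 3.84 and 3.92 CPM with JQ1, against 11.05, 10.6 and 11.4 CPM with DMSO (log2 change -1.51, SE 0.0999, adjusted p = 3.67e-08). Rims3 (-0.67) and the vesicular glutamate transporter gene Slc17a6 (-0.60) fell too. Synaptic adhesion genes had 14 of 41 lower (34.1%, against 23.3% at these levels) and 5 higher, the lower ones including Cbln4 (-1.43), which bridges neurexins to their partners, Lrrtm4 (-0.72) and Lrrtm2 (-0.45).

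Activity-regulated genes did not move as a block. Of 32 immediate early genes 7 rose (21.9%, against 22.8% at these levels) and 11 fell (34.4%, against 34.7%). The sign of the median (-0.0032 with the scaling used here, -0.07 with the upper quartile and 0.07 with the spike-in) depended on the scaling. Ier2 rose by 1.17 (SE 0.0871, adjusted p = 1.08e-07) and Jun by 0.66 (SE 0.0605, adjusted p = 6.71e-07), while Fosl2 fell by 0.87 (SE 0.0992, adjusted p = 5.21e-06) and Nr4a1 by 0.80 (SE 0.114, adjusted p = 3.91e-05). Arc, whose protein forms capsids and controls AMPA receptor traffic, read 0.818, 1.05 and 1.05 CPM with JQ1, against 1.91, 1.67 and 1.84 CPM with DMSO and fell by 0.88 (SE 0.143, adjusted p = 0.000129). Egr1 (0.57) and Fos (0.40), chosen after their values were seen, rose. Of 25 later effectors 6 rose (24.0%, against 33.4% at these levels) and 6 fell (24.0%, against 25.5%). Crem (0.60) and Homer1 (0.28) were among the higher and Rasgrp1 (-1.38) and Rgs4 (-0.76) among the lower. Bdnf had 8.55, 5.28 and 5.59 CPM with JQ1, against 5.20, 4.98 and 4.73 CPM with DMSO, with 1 JQ1 library well above the rest, and was not called (adjusted p = 0.071).

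Fmr1 transcript left in the KO allele had a log2 change of 0.27 (SE 0.113, adjusted p = 0.0572) and was not called with all libraries. It was called with the replicate block (adjusted p = 0.000257), without both KO replicate 3 libraries (0.00248), without KO_DMSO replicate 3 (0.00332), without KO_JQ1 replicate 1 (0.0229), without a filter (0.0162) and in DESeq2 (0.0318). Of the list of FMRP paralogs and partners, 9 of 13 tested members rose (69.2%, against 41.1% at these levels). The 1 that fell was Wasf1 (-0.21), an actin regulator, and 0 fell without KO_JQ1 replicate 1 or without both KO replicate 3 libraries. Fxr1 (0.26, SE 0.0459), an FMRP paralog, Eif4e (0.36, SE 0.0548), the cap-binding factor that CYFIP1 holds, and Nufip2 (0.52, SE 0.0835), an FMRP-interacting protein, were among the higher ones. With upper-quartile scaling 5 of the list rose and 2 fell. Large mRNAs that FMRP binds were mostly not called. Of 58 tested, 10 were higher (17.24%, against 42.28% at these levels) and 9 lower (15.52%, against 16.04%). With the replicate block 15 were higher and 15 lower. The sign of the list's median depended on the scaling. The higher count was 6 without KO_JQ1 replicate 1 or 2 or KO_DMSO replicate 1, and without KO_DMSO replicate 3 the counts were 5 higher and 14 lower. App (0.47), the amyloid precursor, and Tsc2 (0.46), which restrains mTOR, rose, and Pde2a (-0.47) fell. Autism risk genes had 17 of 48 higher (35.4%, against 41.6% at these levels) and 6 lower, with Wac (0.53) among the higher ones, but 9 and 9 with upper-quartile scaling and 11 higher without KO_DMSO replicate 1.

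Chromatin regulators had more higher than lower calls with TMM scaling, as did all tested genes at their levels. With spike-in scaling 0 members of the first 3 lists below were called higher. The medians of these 3 lists, in the order below, were 0.143, 0.181 and 0.137 with TMM scaling. With spike-in scaling they were 0.193, 0.246 and 0.209, so the calls were lost without smaller medians. Histone methyltransferases and demethylases had 23 of 47 higher (48.9%, against 38.9% at these levels) and 2 lower (4.26%, against 20.4%), with a median of 0.14. The demethylase genes Kdm3a (0.59, SE 0.0477) and Kdm1b (0.52, SE 0.0518) and the methyltransferase gene Smyd3 (0.51, SE 0.0499) were among the higher ones. With upper-quartile scaling 6 of them fell, and without both KO replicate 3 libraries 1 did. Polycomb and DNA methylation genes had 20 of 42 higher (47.6%, against 34.7% at these levels) and 5 lower (11.9%, against 24.5%). The repressive complex genes Suz12 (0.62, SE 0.0584) and Eed (0.59, SE 0.0652) and the maintenance methyltransferase gene Dnmt1 (0.42, SE 0.0466) were among the higher. Acetyltransferases, deacetylases and other bromodomain genes were more divided, 22 of 54 higher (40.7%, against 37.1% at these levels) and 10 lower (18.5%, against 22.1%). Both shares were near those of genes of their level. Zmynd8, a bromodomain reader of acetylated histones at enhancers, read 25.1, 26.003 and 22.6 CPM with JQ1, against 61.2, 65.0 and 60.8 CPM with DMSO. It fell by 1.34 (SE 0.0540, adjusted p = 4.9e-10), against a rise of 0.64 in the corepressor gene Sin3a. RNA polymerase II and Mediator genes had 15 of 44 higher (34.1%, against 35.4% at these levels) and 7 lower (15.9%, against 24.2%). Among the higher ones were Med1 (0.36), the subunit that meets nuclear receptors, and Med14 (0.37).

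Myc, a proto-oncogene known to be lowered by BET inhibitors in many tumour cells, fell by 0.34 (SE 0.0501, adjusted p = 5.61e-05), with 34.6, 37.9 and 34.99 CPM with JQ1, against 46.7, 44.6 and 44.8 CPM with DMSO. Mycn, the family member more abundant here, had 91.3, 95.3 and 97.1 CPM with JQ1, against 97.3, 101 and 105 CPM with DMSO and was not called (adjusted p = 0.108). Of 34 tested Myc network and target genes 13 rose (38.2%, against 38.6% at these levels) and 3 fell (8 and 5 with upper-quartile scaling), the higher ones including Odc1 (0.60) of polyamine synthesis and the nucleolar genes Ncl (0.47) and Nop56 (0.40). Myc and Mycn were named after their values were seen.

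Cholesterol synthesis genes fell together by moderate amounts. Of 35 tested members 25 fell (71.4%, against 17.1% at these levels) and 2 rose, with a median of -0.29 and no member past 2-fold. Mvd, which decarboxylates mevalonate diphosphate, read 105, 118 and 104 CPM with JQ1, against 204, 210.4 and 195 CPM with DMSO (log2 change -0.90, SE 0.0580, adjusted p = 2.78e-08). Fdps (-0.75, SE 0.0469), the farnesyl diphosphate synthase gene, Insig1 (-0.69, SE 0.0410), a sterol sensor, and Tm7sf2 (-0.75, SE 0.0534), a sterol reductase, fell with it. The 2 that rose were Insig2 (0.23) and Nr1h2 (0.67), the gene of the oxysterol receptor LXR beta. Srebf2 (-0.37), the master transcription factor of the pathway, and Srebf1 (-0.50), chosen after their values were seen, were among the lower. With spike-in scaling 1 of the list was called lower, around a median of -0.243.

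Most of the inflammatory and antiviral genes that could be tested fell. Their median level was 2.096 CPM for the inflammatory and 1.39 CPM for the interferon list, and low members passed the filter through the group where they were higher, so the counts do not stand for all members. NF-kB factors and inflammatory genes had 18 of 23 lower (78.3%, against 39.4% at these levels) and 1, the cytokine receptor gene Il6st (0.27), higher, with a median of -0.88. Tnfaip3, a ubiquitin-editing brake on NF-kB, read 1.002, 1.01 and 0.897 CPM with JQ1, against 2.80, 3.20 and 3.09 CPM with DMSO (log2 change -1.63, SE 0.128, adjusted p = 1.62e-07). Relb (-1.20, SE 0.119), an NF-kB subunit, and the RNA sensor gene Tlr3 (-2.47, SE 0.363) fell as well. Interferon-stimulated and antigen presentation genes had 22 of 30 lower (73.3%, against 38.8% at these levels) and 2 higher, with a median of -0.88, and 14 lower with a minimum count of 30, which tests fewer genes. Ifitm3 (-2.78, SE 0.190), which blocks virus entry, Ifit2 (-1.23, SE 0.149) and Lgals3bp (-1.31, SE 0.166) were among them, and 0 or 1 rose when any single KO library was left out. At 3 CPM or more, 6 of 9 inflammatory and 6 of 13 interferon genes were lower. With spike-in scaling 9 and 14 of the lists were called lower. The summed level of the interferon list was 244 to 246 CPM with JQ1 and 262 to 268 CPM with DMSO. Of the genes in the table, 17 of 40 inflammatory and 11 of 41 interferon ones were not tested. Summed microglia markers had overlapping ranges, 7.18 to 8.78 CPM with JQ1 and 8.32 to 10.4 CPM with DMSO, with 3 of 5 lower, 0 higher and 0 at 0 in all 6 libraries. Aif1, the most abundant of them, read 5.88, 5.22 and 5.56 CPM with JQ1, against 5.47, 4.86 and 4.47 CPM with DMSO and was not called, and the part of microglia in the result was not tested.

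Retinoid genes had lower calls from synthesis to receptors, 15 of 22 lower (68.2%, against 34.1% at these levels), or 7 with spike-in scaling, and 2 higher with a median of -0.85. Beside Rlbp1 and Aldh1a3, described above, Cyp26b1 (-1.43, SE 0.172), which degrades retinoic acid, and Rara (-0.88, SE 0.111), its receptor, were lower. The 2 higher were Meis2 (0.43) and Nr2f1 (0.25), transcription factors that respond to retinoic acid in embryos. At 3 CPM or more, 8 of 15 retinoid genes were lower and 2 higher.

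**Figure D4:**
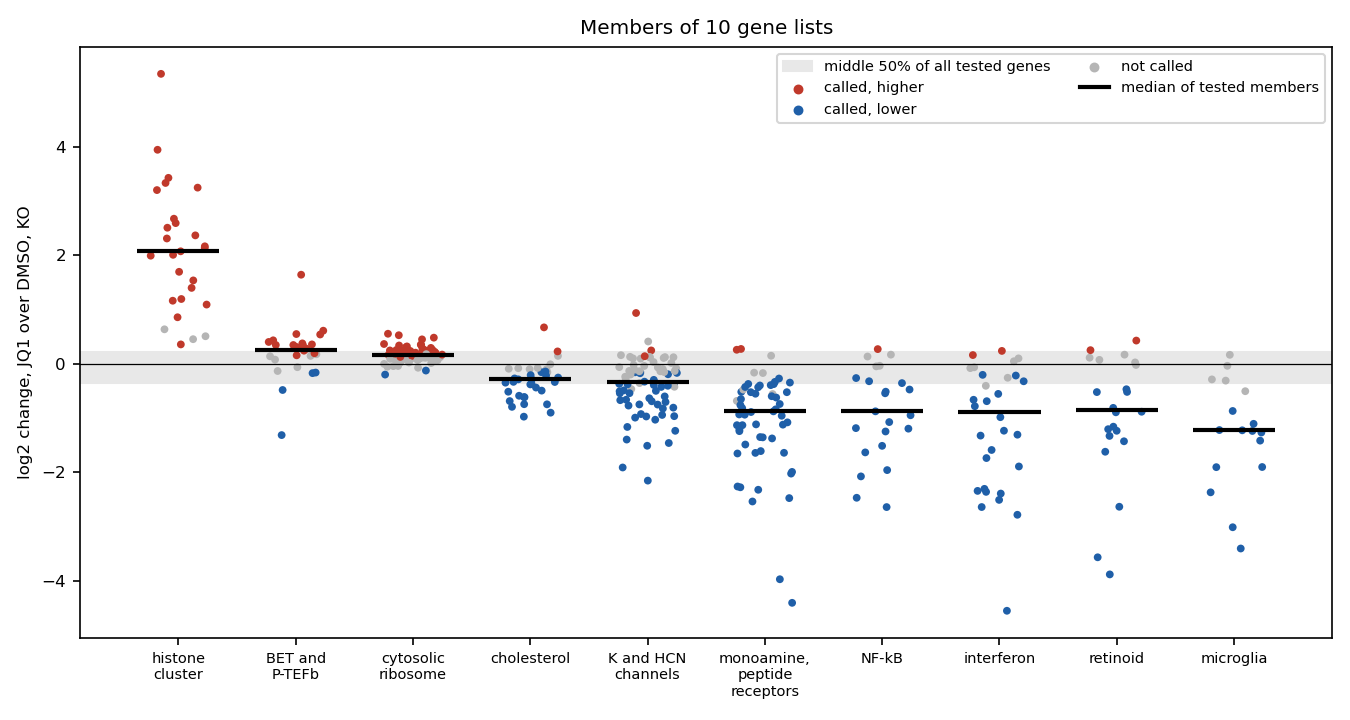
Log2 change between JQ1 and DMSO in KO neurons for each tested member of 10 gene lists, called members in red (higher) or blue (lower) and others in grey, with black bars at the medians and a grey band over the middle 50% of all tested genes (-0.36 to 0.22). All tested histone cluster members lie above the band, and receptor, NF-kB, interferon, retinoid and microglia members mostly below it.

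Glial and vascular genes had more lower than higher calls, but for oligodendrocyte and vascular genes the share lower was near that of genes of their level. Astrocyte and radial glia genes had 22 of 39 lower (56.4%, against 25.3% at these levels), or 9 with spike-in scaling, and 3 higher (1 without replicate 1 or 2 with DMSO or 2 or 3 with JQ1), with a median of -0.44. Aqp4, the water channel of astrocyte endfeet, read 2.80, 5.12 and 4.46 CPM with JQ1, against 15.2, 20.5 and 21.8 CPM with DMSO (log2 change -2.18, SE 0.218, adjusted p = 1.53e-06), and S100b fell by 2.04 (SE 0.202, adjusted p = 1.4e-06). Gfap, the astrocyte filament gene, had 8.18, 14.2 and 11.3 CPM with JQ1, against 9.50, 12.8 and 13.2 CPM with DMSO, overlapping groups that were not called (adjusted p = 0.81). The 3 higher, Nes (0.28), Id4 (0.33) and Hes5 (0.45), mark radial glia and progenitors. Of 16 oligodendrocyte lineage genes 7 fell (43.8%, against 37.3% at these levels) and 1, Ugt8a (0.84), rose (2 without KO_JQ1 replicate 1 or KO_DMSO replicate 3), with the myelin gene Mbp at 2.51, 3.75 and 3.65 CPM with JQ1, against 13.1, 14.5 and 14.1 CPM with DMSO (log2 change -2.05, SE 0.127, adjusted p = 1.95e-08). The lineage factor genes Olig1, at 82.5, 121 and 109 CPM with JQ1, against 87.0, 79.1 and 100.1 CPM with DMSO, and Olig2 (0.16) had overlapping groups and were not called (adjusted p = 0.108 and 0.235). Microglia genes had 12 of 17 lower (70.6%, against 42.9% at these levels) and 0 higher (median -1.23), with 10 of the 17 under 1 CPM and so subject to the filter, their sum running from 22.6 to 27.6 CPM with JQ1 and from 32.0 to 39.2 CPM with DMSO. Endothelial, mural and fibroblast genes had 11 of 23 lower (47.8%, against 40.1% at these levels) and 0 higher, with the matrix gene Fn1 (-1.41, SE 0.118) and the pericyte gene Rgs5 (-2.02, SE 0.184) among the lower, and 1 rose with the replicate block or without KO_JQ1 replicate 2. Changes within cells and changes in the share of these cells cannot be told apart here.

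Genes that mark neuron classes changed in both directions. Inhibitory neuron genes had 7 of 30 lower (23.33%, against 24.79% at these levels) and 3 higher (10%, against 34.24%). Lower calls numbered 4 without KO_JQ1 replicate 2. Higher calls numbered 5 with the replicate block and 1 without both KO replicate 3 libraries. They also numbered 1 without KO_JQ1 replicate 1 or 3 or KO_DMSO replicate 2 or 3. The 4 marker genes Gad1, Gad2, Slc32a1 and Dlx1 summed to 402 to 487 CPM with JQ1 and 423 to 462 CPM with DMSO. Of these 4 genes 0 were called. Calb2, the calretinin gene, read 12.1, 18.9 and 15.8 CPM with JQ1, against 54.1, 54.0 and 47.0 CPM with DMSO (log2 change -1.72, SE 0.178, adjusted p = 2.18e-06), and Htr3a (-2.38, SE 0.191), the ionotropic serotonin receptor gene of some interneurons, fell too. Excitatory neuron and layer genes had 11 of 28 lower (39.3%, against 20.6% at these levels) and 5 higher (17.9%, against 38.8%, or 3 without KO_DMSO replicate 1). Neurod1 (0.68) was among the higher ones and the Ras regulator Rasgrf2 (-0.86) among the lower. Among pan-neuronal structure genes, 7 of 26 rose (26.9%, against 42.5% at these levels) and 9 fell (34.6%, against 15.7%). Higher calls numbered 4 without KO_DMSO replicate 1 or 3 or without both KO replicate 3 libraries, and lower calls 5 without KO_JQ1 replicate 1. Nefl, the neurofilament light chain, read 111, 125 and 129 CPM with JQ1, against 65.0, 70.2 and 68.5 CPM with DMSO (log2 change 0.84, SE 0.0577, adjusted p = 5.13e-08), and Ina (0.49) rose with it, while the RNA-binding protein gene Elavl4 (-0.63) fell. Progenitor and cell cycle genes had 9 of 40 higher (22.5%, against 28.4% at these levels, or 5 without KO_JQ1 replicate 3 or KO_DMSO replicate 2). Another 7 were lower (17.5%, against 30.2%). Of the G1 cyclin genes Ccnd3 (0.61) was higher and Ccnd1 (-0.85) lower.

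Stress pathways gave mixed counts. Heat shock and chaperone genes had 13 of 26 higher, against 34.7% of all tested genes at these levels, such as Hspa4 (0.34) and Dnajb1 (0.36), and 6 lower, such as the small heat shock protein genes Cryab (-2.99) and Hspb8 (-2.43), 3 lower without both KO replicate 3 libraries. Integrated stress and unfolded protein response genes had 15 of 36 higher (41.7%, against 36.4% at these levels), with Sesn2 (0.58), a leucine sensor, and Hspa5 (0.37), the chaperone BiP, and 11 lower. Antioxidant and NRF2 target genes had 13 of 34 higher (38.2%, against 38.8% at these levels) and 9 lower, with Srxn1 (-0.90, SE 0.0601), Gpx1 (-1.03, SE 0.0923) and Me1 (-1.02, SE 0.1002) among the lower. Proteasome subunit genes had 10 of 36 higher (27.8%, against 41.2% at these levels) and 4 lower, where 27.7% of all tested genes were higher, and the immunoproteasome subunit gene Psmb10 (-0.87) was among the lower.

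Long genes fell more often than short ones. Of the 14163 protein-coding genes tested, 13968 (98.6%) had a span in the GENCODE M21 annotation, matched by gene identifier. Among 524 genes spanning more than 300 kb, 42.9% were lower and 63 genes higher, with a median log2 change of -0.18. Among 4076 genes of 30 to 100 kb, 28.2% were lower and 35.8% higher (median 0.05), and among 3267 genes under 10 kb, 28.6% were lower and 25.5% higher. Protein-coding genes as a whole were 30.5% lower and 28.8% higher. More than 2-fold falls did not follow this order, at 8.02% of the longest bin and 9.49% of the shortest. Genes are not independent replicates, and these shares are a description. Small nucleolar RNA genes, most of them within introns of other genes, had 9 of 48 higher (18.8%) and 0 lower. Long intergenic RNAs had 102 of 553 higher (18.4%) and 119 lower (21.5%). Of all tested genes 27.7% were higher and 29.4% lower. Both RNA classes were low, however, with median DMSO levels of 0.183 CPM for small nucleolar and 0.724 CPM for long intergenic RNAs. Of tested genes averaging under 1 CPM, 5.06% were higher and 43.5% lower. Such genes pass the filter through the group where they are higher, so the shares do not stand for all members. No source used here says whether counting took account of strand, which leaves genes that overlap others uncertain.

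The response was set beside that of WT neurons, which had their own JQ1 and DMSO libraries, to ask whether the response differs between the genotypes. Across the 15433 genes the log2 changes of KO and WT had a Pearson r of 0.936, as a description across genes that share 1 fit. In WT 8507 genes were called (55.1%), and 7492 genes were called with the same sign in both, which is 85.0% of the KO calls and 88.1% of the WT calls. Of the genes that fell by more than 2-fold in KO, 86.8% fell by more than 2-fold in WT too, and of those that rose by more than 2-fold, 70.1%. The test of the difference between the responses called 0 genes in edgeR's quasi-likelihood test, with 355 genes (2.3%) at an unadjusted p under 0.05, and 0 genes in DESeq2. The difference, KO minus WT, ran from -0.32 at the 5th percentile to 0.33 at the 95th on the log2 scale, and the median half-width of its 95% confidence interval was 0.25 over all tested genes and 0.84 over those that fell by more than 2-fold. A p that misses the threshold does not show that the responses are alike.

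Single genes had narrower or wider limits. For Hexim1 the difference was -0.08 with a 95% confidence interval of -0.23 to 0.07, for Brd2 -0.02 (-0.145 to 0.107), and for Hist1h1c 0.00 (-0.24 to 0.25). For Trhr it was -0.43 (-1.28 to 0.43), which leaves room for a difference of more than 2-fold. Among the 8 genes of smallest p for the difference was Ptpru, first of them, a receptor phosphatase gene that fell by 2.16 in KO and 1.65 in WT (difference -0.50, interval -0.73 to -0.27, adjusted p = 1). Sema3d, a secreted guidance cue, fell by 2.57 in KO and 1.75 in WT (difference -0.82, -1.28 to -0.36). Cux2, an upper-layer transcription factor gene, fell by 0.55 in KO and 0.24 in WT (difference -0.31, -0.49 to -0.12). Snx7, a sorting nexin gene, was the 1 gene called with opposite signs, 0.24 in KO and -0.32 in WT (difference 0.56, 0.27 to 0.84), and its KO groups overlapped. The KO call of Snx7 was lost when any single KO library except KO_JQ1 replicate 2 was left out. The intervals of these genes were not adjusted for the choice of the smallest p among 15433. Sema6a, Sfrp1, Bcl2l11 and Cdk5r2 completed the 8 with differences of -0.26, -0.40, -0.48 and -0.27. Spike-in scaling raised the difference of all tested genes by a median of 0.69, to above 0 in 98.3% of them, and with it the sign turned for Ptpru (0.21), Sema6a (0.42), Sfrp1 (0.29), Bcl2l11 (0.19), Cdk5r2 (0.43) and Cux2 (0.38), while Sema3d was at -0.15 and Snx7 at 1.26. The direction of those 6 differences therefore depends on the scaling.

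**Figure D5:**
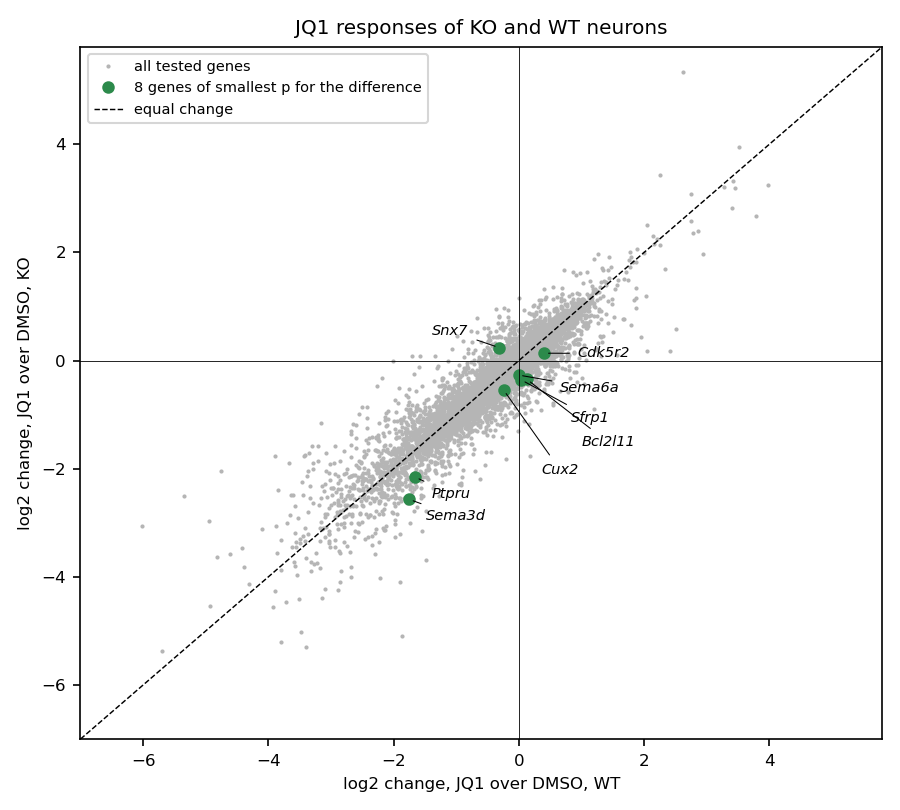
Log2 change between JQ1 and DMSO in KO neurons (vertical axis) against that in WT neurons (horizontal axis) for 15433 tested genes, with a dashed line of equal change and the 8 genes of smallest p for the difference in green. The cloud follows the line (r = 0.936), and no gene was called for the difference.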

How the data were processed

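RNA of cultured mouse cortical neurons was sequenced as 75 bp single reads from TruSeq libraries, per the labels' protocols. The authors deposited 1 table of raw counts per gene with spike-in sequences, and the submitters' processing notes name TopHat2 2.1.0, SAMtools 0.1.19, HTSeq 0.6.1, DESeq2, DESeq and the build mm9, with no settings. No source used here gives the counting mode or strandedness. From these counts, CPM and tests were computed with edgeR 4.0.16 (TMM scaling, quasi-likelihood F test, limma 3.58.1, R 4.3.3) over 12 libraries in 4 groups, with genes kept by filterByExpr at a minimum count of 10 and Benjamini-Hochberg adjustment over all 15433 tested genes. The spread of the 4 groups was estimated together, and log2 changes are JQ1 over DMSO.

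The members and gene lists were chosen with earlier results of these data known. Named genes were fixed genes, among them Fmr1, Brd2, Brd3 and Hexim1, the 12 of largest fold each way and the 6 of largest CPM difference each way among called genes without overlap whose higher group averaged 3 CPM or more, the 4 of smallest adjusted p in each list, and the 8 of smallest p for the difference of responses. Aff1, Bdnf, Brdt, Ccnt1, Ccnt2, Cdk9, Chrm4, Egr1, Fos, Galr2, Gfap, Gria2, Grik2, Grin1, Hes5, Id4, Il6st, Insig2, Jmjd6, Kcnh7, Larp7, Meis2, Myc, Mycn, Nes, Nr1h2, Scg2, Srebf1, Srebf2, Th1l and Wasf1 were named after their values were seen. Some genes that these rules pick are not reported here. Same-numbered KO libraries deviated together from their group means (r = 0.23, 0.29 and 0.21, against -0.17 to -0.064 for other pairs), although the labels do not say what a number marks. The reported tests fit a mean for each group and did not pair same-numbered libraries. Pairing entered only through the replicate block, which gave 9690 calls in place of 8817. Alternatives were DESeq2 1.42.0, upper-quartile and spike-in scaling, other filters, the KO libraries alone, the replicate block and libraries left out. On simulated data for JQ1 over DMSO in KO with 15433 genes, 56% of 1.25-fold, 78% of 1.5-fold, 90% of 2-fold and 98% of 4-fold changes were recovered, and 5.29% of calls were false. The simulation changed 50 genes at each fold, in random directions and without pairing. In the data 57.1% of tested genes were called, and the share of changed genes sets the adjusted p, so these rates need not carry over.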

Additional observations from a re-analysis of the deposited data

How the results depend on the processing

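The number of genes called between JQ1 and DMSO in KO neurons was 8497 with DESeq2, 8949 without a filter, 8036 with the 6 KO libraries alone, 7930 without both KO replicate 3 libraries and 7807 to 9028 when single libraries were left out. With the replicate block, which pairs same-numbered libraries, it was 9690, and the block changed the call of no gene named in the report under the naming rule other than Fmr1. Spike-in scaling gave 1520 calls (206 higher, 1314 lower), with the spike-in share spread widely within the DMSO group. With a minimum count of 30, 80 genes rose by more than 2-fold, since fewer low genes were tested. Spike-in scaling moved the KO minus WT difference of all tested genes up by a median of 0.69 (1st to 99th percentile 0.55 to 0.77), and this common shift turned it positive for Ptpru (0.21), Sema6a (0.42), Sfrp1 (0.29), Bcl2l11 (0.19), Cdk5r2 (0.43) and Cux2 (0.38). The median log2 change of all tested genes was -0.07 with upper-quartile and 0.07 with spike-in scaling. Genes of few reads, such as Sstr3 and Pdyn with JQ1, have sizes limited by depth. The sign of the list median depended on the scaling for immediate early and later activity genes, metabotropic receptor and scaffold, GABA and glycine receptor, inhibitory, pan-neuronal, progenitor, FMRP-bound, mitochondrial ribosome, respiratory chain, proteasome and antioxidant genes.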

Other observations

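Growth factor and receptor tyrosine kinase genes fell in KO neurons with JQ1 in 27 of 55 tested members (49.1%, against 30.5% at these levels) and rose in 4 (median log2 change -0.34). Igfbp5, a binding protein of insulin-like growth factors, read 60.2, 79.0 and 71.2 CPM with JQ1, against 216, 229 and 235 CPM with DMSO, with no overlap (log2 change -1.69, SE 0.0957, adjusted p = 9.17e-09). Igfbp4 (-1.73, SE 0.106), Vegfb (-0.81, SE 0.0579) and Spry4 (-1.06, SE 0.0850), an inhibitor of receptor kinase signalling, fell as well. Notch, Wnt, BMP and Hedgehog genes had 23 of 52 lower (44.2%, against 32.8% at these levels) and 8 higher (5 without KO_JQ1 replicate 2 or KO_DMSO replicate 1, and 4 without KO_DMSO replicate 2), the lower ones including Id3 (-1.60, SE 0.146), Smad9 (-1.53, SE 0.150) and the Wnt antagonist gene Sfrp2 (-1.12, SE 0.119). Axon guidance genes had 11 of 57 higher (19.3%, against 36.4% at these levels), such as the ephrin receptor gene Ephb3 (0.69, SE 0.0710). Lower calls numbered 19 (33.3%, against 22.35%), such as Sema4a (-0.82, SE 0.0559) and Sema3c (-0.79, SE 0.0925), and 29 under the replicate block. Clustered protocadherins, which lie side by side on a single chromosome and label single neurons, had 7 of 24 lower (29.2%, against 31.7% at these levels) (3 without KO_JQ1 replicate 3, 4 without KO_DMSO replicate 2 and 11 with upper-quartile and 0 with spike-in scaling) and 0 higher, all by less than 2-fold.

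Circadian genes were divided, 8 of 22 higher (36.4%, against 30.3% at these levels) and 5 lower (22.7%, against 28.4%). Lower calls numbered 3 without KO_JQ1 replicate 3 or without both KO replicate 3 libraries. The repressors Bhlhe40 (-0.65, SE 0.0712) and Bhlhe41 (-0.91, SE 0.116) and the activator Npas2 (-0.88, SE 0.0817) were lower and Hlf (0.65, SE 0.0863) higher. Imprinted genes moved in both directions as well, with 12 of 32 higher (37.5%, against 29.7% at these levels) and 11 lower (34.4%, against 28.0%). Peg10 and Sgce, neighbours that share a control region, went opposite ways, with Sgce at 7.89, 8.70 and 8.31 CPM with JQ1, against 17.5, 16.4 and 16.8 CPM with DMSO (log2 change -1.02, SE 0.0793, adjusted p = 1.54e-07) against the rise of 1.73 in Peg10. Peg3 (0.75, SE 0.0741) rose and Cdkn1c (-1.24, SE 0.119) fell. Of 30 p53 target genes 12 fell (40%, against 27.17% at these levels) and 7 rose (23.33%, against 32.05%). Perp (-2.11, SE 0.120), Phlda3 (-1.14, SE 0.116) and the cell cycle inhibitor gene Cdkn1a (-0.99, SE 0.0785) were among the lower. Cadherins and non-clustered protocadherins had 10 of 27 lower (37.0%, against 25.7% at these levels) and 6 higher (22.2%, against 32.1%). Cdh10 (-0.56) and Pcdh15 (-0.94) were lower and Cdh18 (0.70) higher.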
